A study of Mus musculus with 17 samples.

Results

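The 9 genes for purine breakdown and salvage described here were followed in the left ventricle of mice after pressure overload, 9 of the 21798 genes in the deposited table: Entpd1, Nt5e, Ampd2, Ampd3, Ada, Adk, Pnp, Xdh and Hprt. They were chosen by name as steps of a single pathway, and the choice was made from earlier results of these data, in which Xdh was lower with 29P in the mice that had TAC. The Xdh differences that were known are therefore given as a description with no test. For the other members the tests describe these libraries and lend no support to the choice.

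Polyadenylated RNA from the left ventricle of male C57Bl6/J mice was sequenced in 17 libraries, 1 per animal number in the labels. The mice were 7 to 8 weeks old when they underwent transverse aortic constriction (TAC), a surgical narrowing of the aortic arch that raises the load on the heart, or Sham surgery. From 1 week after surgery they were given 6 oral doses of 29P at 50 μg/kg over 2 weeks, or saline of matched volume as Vehicle (Veh), and hearts were taken 3 weeks after surgery. 29P is an orally available prodrug of a cyclic peptide that binds αvβ3 integrin. The libraries number 5 for Sham Veh and 3 for Sham 29P, and 3 for TAC Veh against 6 for TAC 29P. Per the study's account, a TAC Veh library was left out because it grouped with Sham libraries in a principal component analysis. The TAC Veh libraries kept were thus chosen in part by how they differ from Sham, which bears on each difference and non-overlap between TAC Veh and Sham Veh given here. No group carries an engineered allele, and the sequenced piece was the apex of the ventricle, which holds all the cell types of that wall.

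When the heart consumes more ATP than it makes, AMP accumulates and is broken down along 2 routes. Inside the cell AMP is deaminated to IMP or dephosphorylated to adenosine, and outside the cell ATP and ADP are stripped to AMP and then to adenosine, a vasodilator that acts on its own receptors. Adenosine is either phosphorylated back to AMP or deaminated to inosine, which is cleaved to hypoxanthine, and hypoxanthine is either salvaged to IMP or oxidised through xanthine to uric acid. The last step is catalysed by xanthine dehydrogenase, whose oxidase form releases superoxide and hydrogen peroxide, and which in the heart is best known from vascular endothelium.

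Several libraries stood apart, and this touches the results that follow. Coordinates are those of GENCODE vM21 on mm10. Depth, estimated from the spacing of low values, was 14.1 to 23.7 M reads per library, lowest in library S14 (Sham 29P). The summed CPM (the counts of a gene scaled to a fixed library total) of 4 atrial markers was 1060 in S18 (TAC 29P), 2642 in S19 and 2117 in S20 (both Sham Veh), and at most 5.96 in the other 14 libraries, so these 3 pieces of ventricle also held atrial transcripts. Cardiomyocyte markers were high in all 17 libraries (24230 to 39728 CPM summed over 6 genes), but this list is not specific to the ventricle. The 16 mitochondrially encoded genes took 29.1 to 40.0% of all counts in Sham and 23.6 to 29.4% in TAC libraries, and the 16218 genes tested had a median log2 fold change of 0.35 for TAC Veh against Sham Veh. Rescaling by trimmed mean of M-values (TMM) brought that median to 0.01. Changes with TAC are therefore given under both scalings.

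Divided by the length of annotated exon, mean CPM per kilobase over all 17 libraries was 38.3 for Hprt, 13.04 for Adk and 9.12 for Xdh. Ampd3, Pnp and Entpd1 followed at 5.51, 4.62 and 4.57, then Nt5e at 1.76 and Ampd2 at 1.54, and Ada was lowest at 0.528. Hprt ranked first and Ada last in each of the 17 libraries, Adk and Xdh exchanged ranks 2 and 3, Ampd3, Pnp and Entpd1 exchanged ranks 4 to 6, and Nt5e and Ampd2 exchanged ranks 7 and 8. The spread of CPM between libraries was narrow for Hprt (coefficient of variation 10.9%) and Adk and widest for Ada (54.9%). All 9 members passed the filter on low values (CPM of at least 0.5 in at least 3 libraries).

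**Figure D1:**
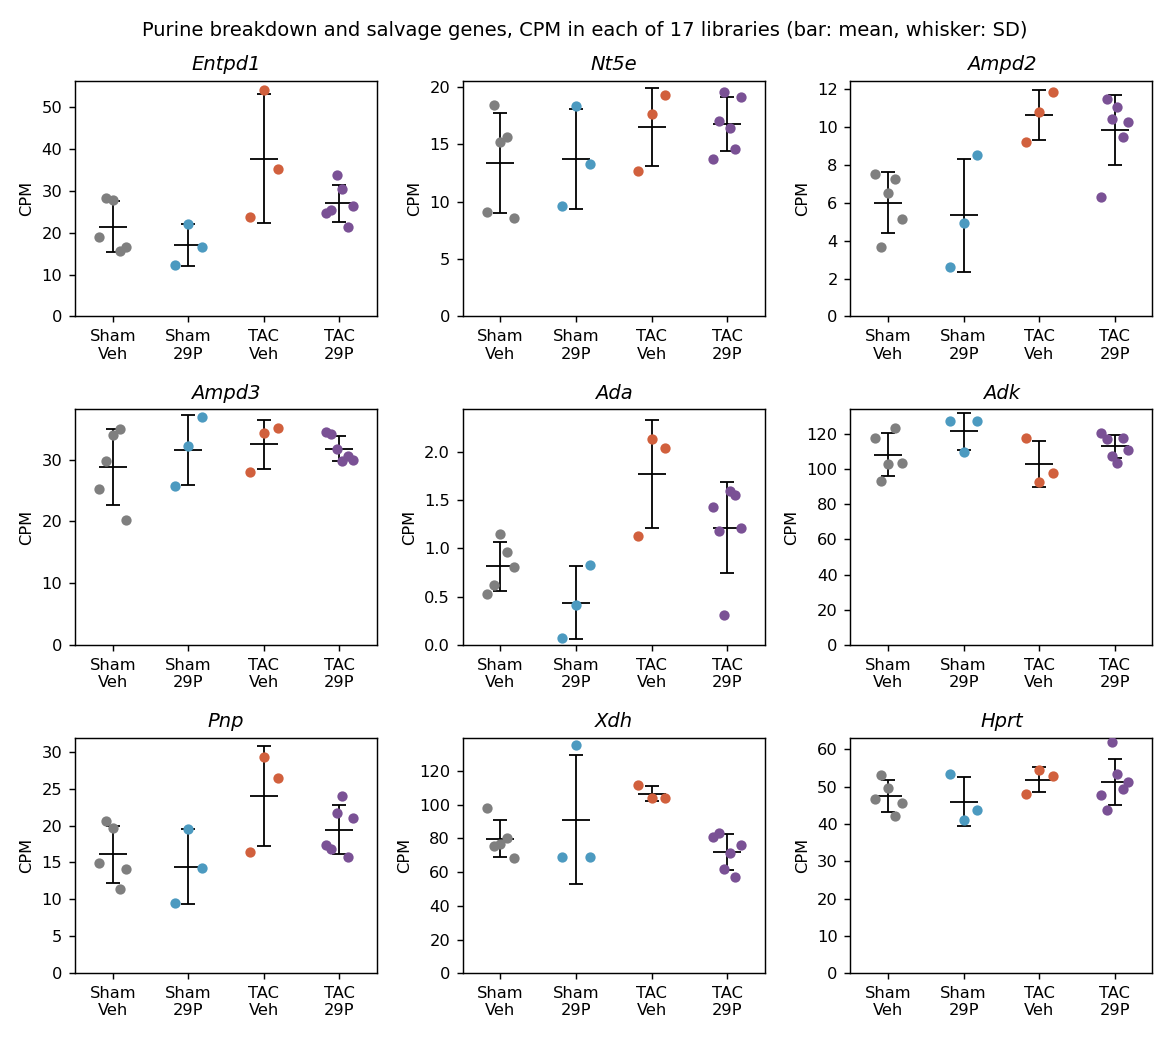
CPM (vertical axes, from 0) of the 9 members in each of 17 libraries, by group; each point is 1 library, the bar is the group mean and the whisker its SD. Xdh is high in all 3 TAC Veh libraries and lower in all 6 TAC 29P libraries, Ampd2 is high in all 3 TAC Veh libraries, and Adk and Hprt vary little.

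The sequences just before the transcription start are shown for 3 members whose RefSeq start is also the outermost annotated start of the gene: Entpd1, which was higher after TAC on the scale of total counts, Ada, which was higher on that scale in 29P mice with S14 included and missed the threshold in Veh mice, and Adk, which was lower under TMM. Each is the 250 bases before the start, 5′ to 3′ on the strand of the gene, from RefSeq on GRCm38.p6, the assembly behind mm10. Capitals mark the GC box (GGGCGG, or CCGCCC on the other strand), a short motif bound by Sp1-family factors.
Entpd1, chr19:40612116-40612365, plus strand: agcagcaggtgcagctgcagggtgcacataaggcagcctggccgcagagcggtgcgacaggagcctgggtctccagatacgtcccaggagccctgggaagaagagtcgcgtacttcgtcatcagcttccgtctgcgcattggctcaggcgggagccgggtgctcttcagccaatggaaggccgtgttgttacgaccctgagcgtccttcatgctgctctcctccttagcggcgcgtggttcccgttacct
Ada, chr2:163750240-163750489, minus strand: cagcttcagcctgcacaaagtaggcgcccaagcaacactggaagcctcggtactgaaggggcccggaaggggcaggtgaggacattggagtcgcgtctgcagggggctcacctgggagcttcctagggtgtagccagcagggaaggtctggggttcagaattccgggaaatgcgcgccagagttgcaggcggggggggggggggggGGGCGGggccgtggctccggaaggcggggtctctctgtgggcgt
Adk, chr14:21052324-21052573, plus strand: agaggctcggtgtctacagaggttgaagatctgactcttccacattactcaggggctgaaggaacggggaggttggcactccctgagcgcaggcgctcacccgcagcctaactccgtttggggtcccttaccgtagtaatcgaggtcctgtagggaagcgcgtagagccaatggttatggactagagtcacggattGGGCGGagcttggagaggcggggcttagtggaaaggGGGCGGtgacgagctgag
The Entpd1 window held no GC box, that of Ada 1 and that of Adk 2. GC content was 62.4% for Entpd1, 67.2% for Ada and 58.8% for Adk, against a median of 52.4% over 32536 distinct RefSeq windows of the same length. The table holds 13 windows for 8 of the members. A GC box was found in 7 of these 13 windows and in 33.0% of all windows, the core of the hypoxia response element (ACGTG or GCGTG on either strand) in 4 of 13 and in 38.8%, and TATAAA on either strand in 0 of 13 and in 12.3%. A match describes the letters only and is no evidence of binding.

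Of the members, 2 of 9 were called higher and 0 lower in TAC Veh against Sham Veh mice, at an adjusted p of 0.05 or less over all 16218 genes. Over all genes the shares were 22.5% higher and 1.91% lower, so 2 of 9 is near the background. Under TMM 0 of 9 were higher and 1 of 9 was lower, against 3.85% and 5.78% of all genes. In TAC 29P against Sham 29P mice 3 of 9 were higher and 0 lower, where 31.4% of all genes were higher and 1.12% lower. Under TMM 0 of 9 were higher and 2 of 9 lower, against 5.73% and 4.98%. These were Adk and Xdh, and nothing is read from the count of Xdh, which was chosen for its low values in the same TAC 29P libraries. The median log2 fold change of the members was 0.43 in Veh and 0.33 in 29P mice, beside 0.35 and 0.37 for all genes. The 2 comparisons use different mice and share no library, but their variance was estimated together.

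**Figure D2:**
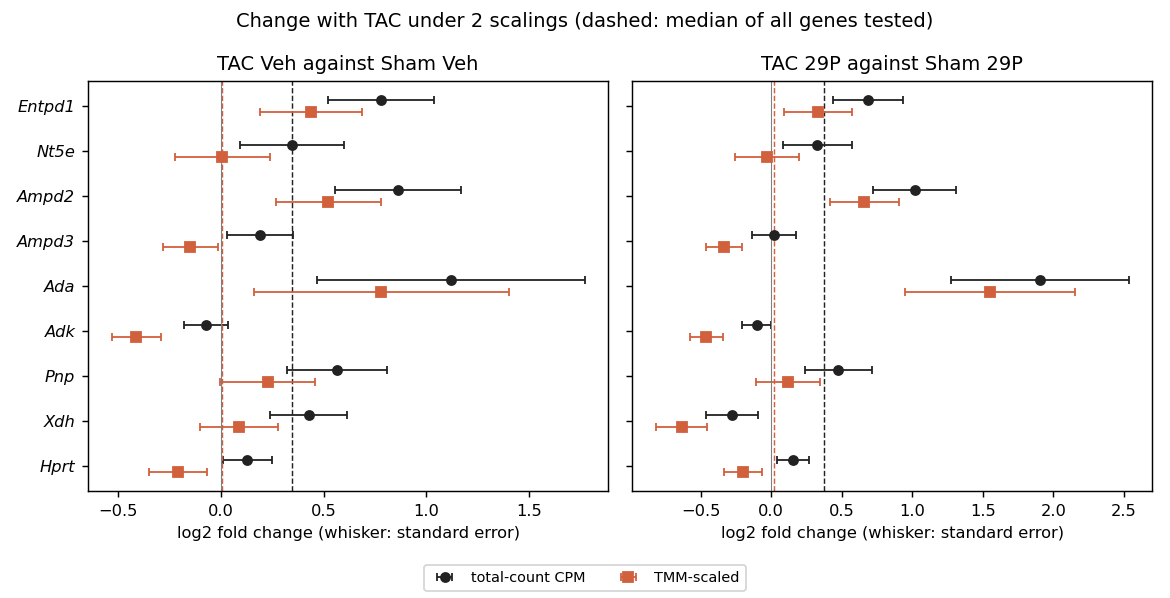
Log2 fold change (horizontal axis) of each member for TAC Veh against Sham Veh (left) and TAC 29P against Sham 29P (right), from CPM of total counts (circles) and TMM-scaled values (squares); whiskers are standard errors, dashed lines the median of all genes tested. With total counts, Ampd2, Entpd1, Ada and Pnp lie to the right of the median of all genes in both panels. Adk, Ampd3 and Hprt lie to its left in both.

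Entpd1 encodes CD39, the surface enzyme of endothelium and leukocytes that removes phosphates from extracellular ATP and ADP. The gene lies on chromosome 19 of mm10 from 40612366 to 40741602 on the plus strand and overlaps the pseudogene Gm8783 (mean 7.13 CPM) on the same strand. Its CPM was 15.7, 16.7, 18.9, 27.8 and 28.3 in Sham Veh libraries and 23.8, 35.2 and 54.1 in TAC Veh libraries. It was 12.4, 16.6 and 22.2 in Sham 29P libraries and 21.3 to 33.9 (median 25.9) in the 6 TAC 29P libraries. Of the TAC Veh libraries 2 of 3 lay above every Sham Veh library, and of the TAC 29P libraries 5 of 6 lay above every Sham 29P library. The 2 highest Sham Veh values came from S19 and S20, the libraries with atrial transcripts. On the log2 scale Entpd1 was 0.78 higher after TAC in Veh mice (SE, the standard error, 0.26; limma adjusted p = 0.0375) and 0.69 higher in 29P mice (SE 0.25, adjusted p = 0.0441). Under TMM these values were 0.44 (adjusted p = 0.278) and 0.33 (adjusted p = 0.375), past the threshold in neither. Without the 3 atrial libraries they were 1.06 (adjusted p = 0.0187) and 0.62 (adjusted p = 0.0496). The call in Veh mice was lost without any one of S2, S5, S6, S13 and S16 (0.48 without S16, adjusted p = 0.196). That in 29P mice was lost without any one of S1, S2, S3, S4, S9, S11, S13, S14 and S18 (0.48 without S14, adjusted p = 0.257). Of these, S2 and S13 are Veh libraries outside this comparison. Without either the value stayed at 0.69 (limma adjusted p = 0.0520 and 0.0503). With totals without mitochondrial genes both calls of Entpd1 were lost (limma adjusted p = 0.0927 in Veh and 0.138 in 29P mice). With median-of-ratios factors they were lost too (adjusted p = 0.266 and 0.384). With no filter on low values that in 29P mice was lost (adjusted p = 0.0561). Both calls of Entpd1 were kept in a fit with a term for the animal-number run. Its log2 fold change was then 0.81 (SE 0.17, limma adjusted p = 0.00841) in Veh mice and 0.74 (SE 0.17, adjusted p = 0.0345) in 29P mice. Within the first run of animal numbers in the labels, the single TAC Veh library had 35.2 CPM and the 2 Sham Veh libraries 15.7 and 16.7, and within the second the values were 23.8 and 18.9.

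Summed cell markers, given on total counts only, also differed between Sham and TAC libraries. On that scale the median gene was itself 0.35 higher in log2 for TAC Veh against Sham Veh. The summed CPM of 6 macrophage markers, none of which was at 0 in any library, was 96.5 to 198 in Sham and 221 to 362 in TAC libraries, without overlap. The sum of 6 fibroblast markers was 647 to 1151 in Sham and 995.4 to 2115 in TAC libraries (means of 846 and 1656), and that of 5 mural cell markers 977 to 1359 and 1297 to 1623 (means of 1178 and 1437). That of 6 endothelial markers, also without a library at 0, was 522 to 998 and 897 to 1261. The sum of 6 cardiomyocyte markers went the other way. It was 26007 to 39728 in Sham and 24230 to 32957 in TAC libraries (means of 32224.5 and 28662.3). Summed lymphocyte markers were at most 3.56 CPM in Sham and 2.67 to 9.21 in TAC libraries, with 3 of 5 markers at 0 in some library. Their part in the change of Entpd1 and of the members below was not tested, and in bulk RNA more cells of a type and more RNA per cell cannot be told apart.

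Nt5e encodes CD73, which turns extracellular AMP into adenosine, and the gene lies on chromosome 9 from 88327197 to 88372092, plus strand. Its CPM was 8.59, 9.08, 15.2, 15.6 and 18.4 in Sham Veh and 12.7, 17.6 and 19.3 in TAC Veh libraries. It was 9.59, 13.3 and 18.3 in Sham 29P and 13.7 to 19.6 (median 16.7) in TAC 29P libraries. The groups overlapped in both comparisons, since some Sham libraries were as high as most TAC libraries. The log2 fold change with TAC was 0.35 (95% interval −0.18 to 0.88) in Veh and 0.33 (−0.19 to 0.84) in 29P mice, and 0.01 and −0.03 under TMM, where the sign in 29P mice turned.

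The AMP deaminases Ampd2 and Ampd3 turn AMP into IMP, and Ampd2 is the widely expressed isoform. Ampd2 lies on chromosome 3 from 108074062 to 108086651, minus strand, with the antisense gene Gm12500 at a mean of 0.0927 CPM. Its CPM was 3.66, 5.13, 6.49, 7.25 and 7.51 in Sham Veh libraries and 9.23, 10.8 and 11.9 in TAC Veh libraries. It was 2.61, 4.93 and 8.51 in Sham 29P libraries and 6.31 to 11.5 (median 10.4) in TAC 29P libraries. Each of the 3 TAC Veh libraries lay above each of the 5 Sham Veh libraries, a pattern that 27.6% of all genes shared. Of the TAC 29P libraries 5 of 6 lay above all Sham 29P libraries, and S1 (6.31 CPM) did not. On the log2 scale Ampd2 was 0.86 higher after TAC in Veh mice (SE 0.31, adjusted p = 0.0490) and 1.02 higher in 29P mice (SE 0.30, adjusted p = 0.0199). Under TMM these were 0.52 (adjusted p = 0.199) and 0.66 (adjusted p = 0.0892), past the threshold in neither. With a term for the animal-number run both calls were lost (0.86 in each, adjusted p = 0.0938 in Veh and 0.130 in 29P mice). That in 29P mice was also lost without S14 (0.58, adjusted p = 0.182). That in Veh mice was also lost without the 3 atrial libraries (0.69, adjusted p = 0.153) and in 12 of 17 fits that left out 1 library, those without S2, S3, S6, S8, S9, S11, S12, S15, S16, S18, S19 or S20 (adjusted p up to 0.182). Of these, S3, S8, S9, S11, S15 and S18 are 29P libraries outside this comparison. Without any one of them the log2 fold change stayed at 0.86 (limma adjusted p of 0.0539 to 0.0603).

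Ampd3, the isoform best known from red cells, had 20.2, 25.3, 29.8, 34.1 and 34.9 CPM in Sham Veh and 28.0, 34.3 and 35.1 CPM in TAC Veh libraries. It had 25.7, 32.1 and 37.0 CPM in Sham 29P and 29.8 to 34.5 CPM (median 31.1) in TAC 29P libraries. All groups overlapped. The log2 fold change with TAC was 0.19 (95% interval −0.15 to 0.53) in Veh and 0.02 (−0.31 to 0.35) in 29P mice, and −0.15 and −0.34 under TMM, which turned the sign in both. The sum of 5 red cell markers was 3082 to 4992 CPM in TAC Veh and 1036 to 4151 CPM in TAC 29P libraries, and at most 2463 CPM in any Sham library. Its part in the values of Ampd3 was not tested. Ampd3, on chromosome 7 from 110768206 to 110812405, plus strand, overlaps Rnf141 (mean 34.8 CPM) on the opposite strand, and since the strand setting of the counting is not given in the sources used here, their reads may be shared.

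Adenosine deaminase, encoded by Ada, turns adenosine into inosine and is abundant in lymphoid tissue. The gene lies on chromosome 2 from 163726584 to 163750239, minus strand. It was the scarcest member, with an estimated 1 to 41 reads per library. Its CPM was 0.523, 0.626, 0.806, 0.968 and 1.15 in Sham Veh libraries and 1.13, 2.05 and 2.13 in TAC Veh libraries. It was 0.0706 (S14), 0.411 and 0.830 in Sham 29P libraries and 0.315 (S18) to 1.59, with a median of 1.32, in TAC 29P libraries. Of the TAC Veh libraries 2 of 3 lay above all Sham Veh libraries, and of the TAC 29P libraries 5 of 6 lay above all Sham 29P libraries. After TAC the log2 fold change in 29P mice was 1.90 (SE 0.63, adjusted p = 0.0315), and 1.55 under TMM (adjusted p = 0.1002), past the threshold only with total counts. In Veh mice it was 1.12 (SE 0.65, adjusted p = 0.200), and 0.78 under TMM (adjusted p = 0.453). With neither S14 nor the atrial libraries that in Veh mice passed the threshold (1.20, adjusted p = 0.0323) and that in 29P mice did not (1.24, adjusted p = 0.0544). The value in 29P mice rests on S14, which holds about 1 read of Ada: without that library it was 0.89 (adjusted p = 0.282), and a run term gave 1.400 (adjusted p = 0.122). It also missed the threshold, by a small margin, without any one of S1, S3, S8, S9 and S11 (adjusted p of 0.0503 to 0.0618).

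Adenosine kinase, encoded by Adk, phosphorylates adenosine back to AMP, and the gene lies on chromosome 14 from 21052574 to 21448569, plus strand. Its CPM was 93.2, 103, 103, 118 and 123 in Sham Veh and 92.7, 97.8 and 118 in TAC Veh libraries. It was 109, 127 and 128 in Sham 29P and 104 to 120 (median 114) in TAC 29P libraries. The groups overlapped in both comparisons. With TAC its log2 fold change was −0.07 (95% interval −0.30 to 0.15) in Veh and −0.10 (−0.32 to 0.12) in 29P mice. Under TMM the fall was past the threshold in both, by −0.41 (SE 0.12, adjusted p = 0.0382) and −0.46 (SE 0.12, adjusted p = 0.0199). It was so with median-of-ratios factors too (limma adjusted p = 0.0437 and 0.0186). With totals without mitochondrial genes it was not (−0.23, adjusted p = 0.190, and −0.28, adjusted p = 0.0910). Fits that left out libraries or held a run term used total counts, so the fall under TMM was not examined in them.

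Purine nucleoside phosphorylase, encoded by Pnp, cleaves inosine and guanosine to the free base, and the gene lies on chromosome 14 from 50931082 to 50965237, plus strand. Its CPM was 11.4, 14.1, 14.96, 19.6 and 20.6 in Sham Veh libraries and 16.4, 26.4 and 29.2 in TAC Veh libraries. It was 9.48, 14.2 and 19.6 in Sham 29P and 15.7 to 24.0 (median 19.2) in TAC 29P libraries. As with Entpd1, S2 and S16 were the 2 high TAC Veh libraries, and S19 and S20 the 2 high Sham Veh libraries. With TAC its log2 fold change was 0.57 (SE 0.24, adjusted p = 0.0923) in Veh and 0.47 (SE 0.24, adjusted p = 0.126) in 29P mice, and 0.23 and 0.12 under TMM. Without the 3 atrial libraries that in Veh mice was 0.80 (adjusted p = 0.0524), and with S14 left out as well it was again 0.80 and past the threshold (adjusted p = 0.0217). Pnp overlaps its close copy Pnp2 on the same strand, so reads could be split between them. Pnp2 had a mean of 0.197 CPM and was listed at the added constant in 4 libraries.

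Xanthine dehydrogenase, encoded by Xdh, lies on chromosome 17 of mm10 from 73883895 to 73950196 on the minus strand. Its CPM was 68.3, 75.6, 76.7, 80.0 and 97.9 in Sham Veh libraries and 104, 104 and 112 in TAC Veh libraries. It was 68.9, 69.1 and 135 in Sham 29P libraries, and 57.0, 62.0, 71.6, 76.0, 80.9 and 83.4 in TAC 29P libraries. Each TAC Veh library lay above each Sham Veh library, and each of the 6 TAC 29P libraries lay below each of the 3 TAC Veh libraries. The lowest TAC Veh value was 104 and the highest TAC 29P value 83.4. The pattern of TAC Veh above Sham Veh was shared by 27.6% of all genes. That of TAC 29P below TAC Veh was shared by 0.987% of all genes, and it is the pattern known when Xdh was chosen. Levels in TAC 29P and Sham Veh libraries overlapped. The log2 fold change of Xdh was 0.43 (SE 0.19) for TAC Veh against Sham Veh and −0.58 (SE 0.18) for TAC 29P against TAC Veh. Under TMM the rise with TAC was 0.09 and the difference with 29P −0.56.

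The Xdh value of Sham 29P library S15, 135 CPM, was the highest of all 17, against 68.9 and 69.1 in the other Sham 29P libraries. The log2 fold change of TAC 29P against Sham 29P, −0.28, turned to 0.04 when S15 was left out. Under TMM it was −0.64, a value that also uses S15 and is given as a description. Within the first run of animal numbers, the single TAC Veh library had 104 CPM, the 5 TAC 29P libraries 57.0 to 83.4, the 2 Sham Veh libraries 68.3 and 80.0 and the Sham 29P library 68.9. The second run held TAC Veh at 112, Sham Veh at 97.9 and Sham 29P at 69.1 CPM, and the third TAC Veh at 104 and Sham 29P at 135 CPM. With a run term in the fit the log2 fold change was −0.32 (SE 0.20) for TAC 29P against TAC Veh and 0.18 (SE 0.20) for TAC Veh against Sham Veh. When each library was left out in turn, the difference with 29P within TAC lay between −0.63 and −0.52. Xdh was chosen from this difference, so its range is a description and lends it no support. Summed endothelial markers were 976 to 1261 CPM in TAC Veh and 897 to 1246 CPM in TAC 29P libraries, and their part in the difference of Xdh was not tested.

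Hprt, which salvages hypoxanthine and guanine to IMP and GMP and often serves as a reference gene, had 42.2, 45.6, 46.6, 49.8 and 53.2 CPM in Sham Veh and 48.1, 53.0 and 54.4 CPM in TAC Veh libraries. It had 41.0, 43.6 and 53.4 CPM in Sham 29P and 43.7 to 61.9 CPM (median 50.3) in TAC 29P libraries. The gene lies on chromosome X from 52988137 to 53021659, plus strand. All groups overlapped. With TAC its log2 fold change was 0.13 (95% interval −0.12 to 0.38) in Veh and 0.16 (−0.09 to 0.40) in 29P mice, and −0.21 and −0.20 under TMM, so its sign depended on the scaling.

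The question of the treatment arm is whether 29P altered these genes in the loaded heart. For TAC 29P against TAC Veh, 0 of 9 members were called in either direction after adjustment, and 0.0% of all genes were. At an unadjusted p of 0.05 or less, 0 of 9 were higher and 1 of 9, Xdh, was lower, against 1.05% and 0.931% of all genes. As Xdh was chosen from this contrast, its count says nothing about the members. For the others the limma adjusted p was 1 in each case. They had log2 fold changes of −0.42 for Entpd1 (95% interval −0.94 to 0.11), −0.65 for Ada (−1.98 to 0.67) and −0.28 for Pnp (−0.78 to 0.22). Those of Ampd2 (−0.13), Ampd3 (−0.03), Hprt (−0.02), Nt5e (0.03) and Adk (0.14) were smaller, and their intervals reached from −0.75 to 0.54. The intervals for Ampd3, Hprt and Adk lay within −0.36 to 0.36, while those of Ada and Entpd1 were wider. All 9 TAC libraries are used in each of these values. The 3 TAC Veh libraries also enter the comparison with Sham Veh, so the 2 comparisons share them. Of the TAC Veh libraries only S2 shared its run of animal numbers with TAC 29P libraries, so 29P and run are largely confounded within TAC. With a run term the log2 fold change was −0.37 (SE 0.17) for Entpd1, −1.16 (SE 0.56) for Ada and −0.29 for Pnp. It was then −0.28 for Ampd2, −0.16 for Ampd3, −0.05 for Hprt, −0.13 for Nt5e and 0.15 for Adk.

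**Figure D3:**
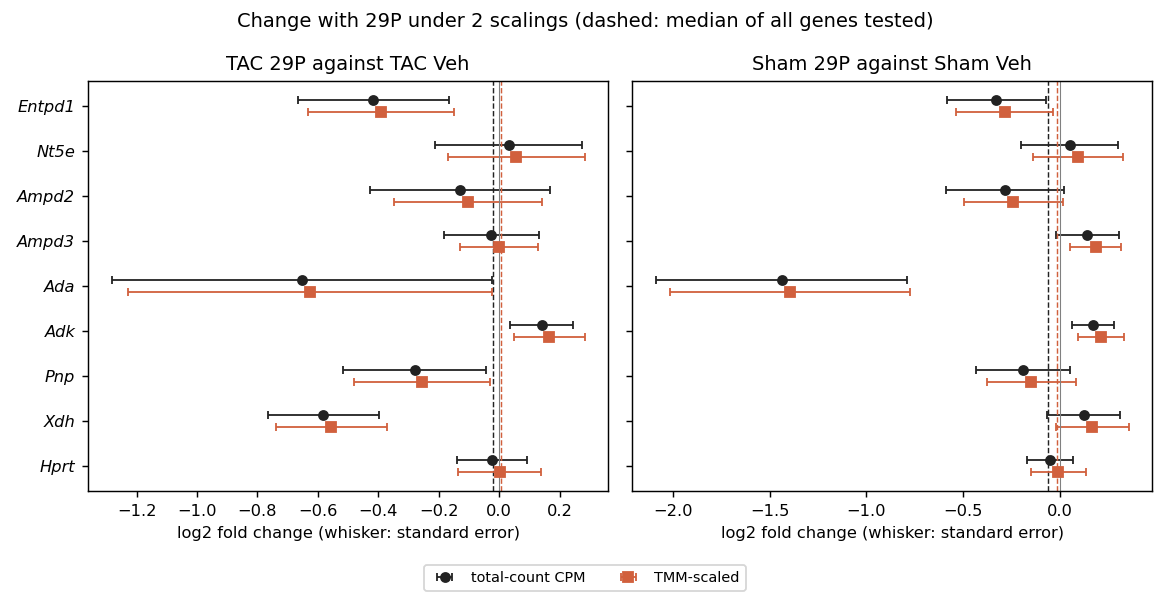
Log2 fold change (horizontal axis) with 29P of each member within TAC (left) and within Sham (right) under both scalings; whiskers are standard errors, dashed lines the median of all genes tested. Both scalings give nearly equal values. That of Xdh within TAC (−0.58) is the difference from which Xdh was chosen and is given as a description. Of the other members only Ada within Sham (−1.44) lies more than 2 standard errors from 0. It rests on S14, where Ada has about 1 read.

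In Sham 29P against Sham Veh mice 0 of 9 members were called after adjustment, against 0.0% of all genes higher and 0.00617% lower. At an unadjusted p of 0.05 or less 0 of 9 were higher and 1 of 9, Ada, was lower, against 1.6% and 5.89% of all genes. Ada had a log2 fold change of −1.44 (SE 0.65, adjusted p = 0.656), and it rests on S14, where Ada has about 1 read. The other members differed by between −0.33 (Entpd1) and 0.17 (Adk). The difference of the surgery effect between 29P and Veh mice, tested as an interaction, was past the adjusted threshold for 0 of 9 members and 1 of 16218 genes (461 at an unadjusted p of 0.05 or less). For the 8 members other than Xdh it lay between −0.17 (Ampd3) and 0.79 (Ada, SE 0.91), with an adjusted p of 0.998 each. For Xdh it was −0.71 (SE 0.26), given as a description.

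Other genes of purine metabolism give the setting of these 9. Of 69 listed, 61 are in the file and 57 passed the filter. On total counts 12 of 57 were higher and 0 lower in TAC Veh against Sham Veh mice, where 22.5% of all genes were higher and 1.91% lower. In TAC 29P against Sham 29P mice 16 of 57 were higher and 0 lower, against 31.4% and 1.12% of all genes. Both counts of higher genes are near the background, and 9 genes were called in both. Under TMM the counts were 1 higher and 1 lower in Veh mice, against 3.85% and 5.78% of all genes, and 3 higher and 6 lower in 29P mice, against 5.73% and 4.98%. The same shares of all genes are the background of the smaller lists that follow. The median log2 fold change of the 57 was 0.29 in Veh and 0.32 in 29P mice, below those of all genes (0.35 and 0.37).

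Among enzymes that act on extracellular nucleotides, 2 of 4 tested were higher in each comparison. Enpp1, which cleaves ATP to AMP and pyrophosphate, had a mean of 7.23 CPM in Sham Veh libraries and rose on the log2 scale by 1.74 (adjusted p = 0.00158) in Veh and 1.76 (adjusted p = 0.00138) in 29P mice. It was past the threshold under TMM too (1.400 and 1.404, adjusted p = 0.00253 and 0.00353). Entpd2, a relative of Entpd1 that prefers ATP over ADP, rose by 0.90 (adjusted p = 0.0276) and 1.09 (adjusted p = 0.00976), and under TMM was called in 29P mice only (0.73, adjusted p = 0.0400; 0.57, adjusted p = 0.119 in Veh mice).

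Of the intracellular nucleotidases, 1 of 6 rose in Veh and 3 of 6 in 29P mice. The muscle AMP deaminase Ampd1 was listed with them but had no values in these data. Nt5c, a cytosolic and nuclear 5′-nucleotidase, was 0.97 higher in 29P mice (adjusted p = 0.00470, TMM 0.61, adjusted p = 0.0337). Of the nucleoside transporters 1 of 5 and 3 of 5 rose, among them the lysosomal Slc29a3 (0.998 and 0.84, adjusted p = 0.0249 and 0.0358), which was not called under TMM (0.66 and 0.48, adjusted p = 0.113 and 0.207). Of the 4 adenosine receptors 0 were called in either comparison, and 0 at an unadjusted p of 0.05 or less on total counts (under TMM 1 was lower in Veh mice). The largest value among them, for Adora3, is not read as a fold because Adora3 was listed at the added constant in 2 libraries.

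Of the genes for purine bases, urate and the molybdenum cofactor, 1 of 8 rose in each comparison. It was Mocos, whose product completes the cofactor of xanthine dehydrogenase and aldehyde oxidase (0.74, adjusted p = 0.0137, and 0.52, adjusted p = 0.0397). Under TMM Mocos was not called (0.40 and 0.16, adjusted p = 0.148 and 0.538). Aox1, an aldehyde oxidase that shares this cofactor, was lower under TMM (−0.66, adjusted p = 0.0110, and −0.61, adjusted p = 0.0159). On total counts its values were −0.32 (adjusted p = 0.104) in Veh and −0.25 (adjusted p = 0.165) in 29P mice. Of the urate transporters 1 of 3 rose in each, and Slc2a9 was 0.99 higher in 29P mice (adjusted p = 0.0168, TMM 0.64, adjusted p = 0.117).

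Of 18 genes of salvage and interconversion 3 and 4 rose on total counts. Impdh1, which commits IMP to guanine nucleotides, was higher by 0.83 (adjusted p = 0.0192) and 0.86 (adjusted p = 0.0119), and Dck, a deoxynucleoside kinase, by 0.80 (adjusted p = 0.0206) and 0.81 (adjusted p = 0.0147). Neither was called under TMM, where Impdh1 was at 0.49 and 0.51 (adjusted p = 0.11 and 0.0800) and Dck at 0.46 and 0.45 (adjusted p = 0.219 and 0.192). Of the 18 genes of this list 0 rose and 0 and 3 fell under TMM. Of 9 genes of purine synthesis from small precursors 3 and 2 rose on total counts, and 0 rose and 0 and 2 fell under TMM.

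**Figure D4:**
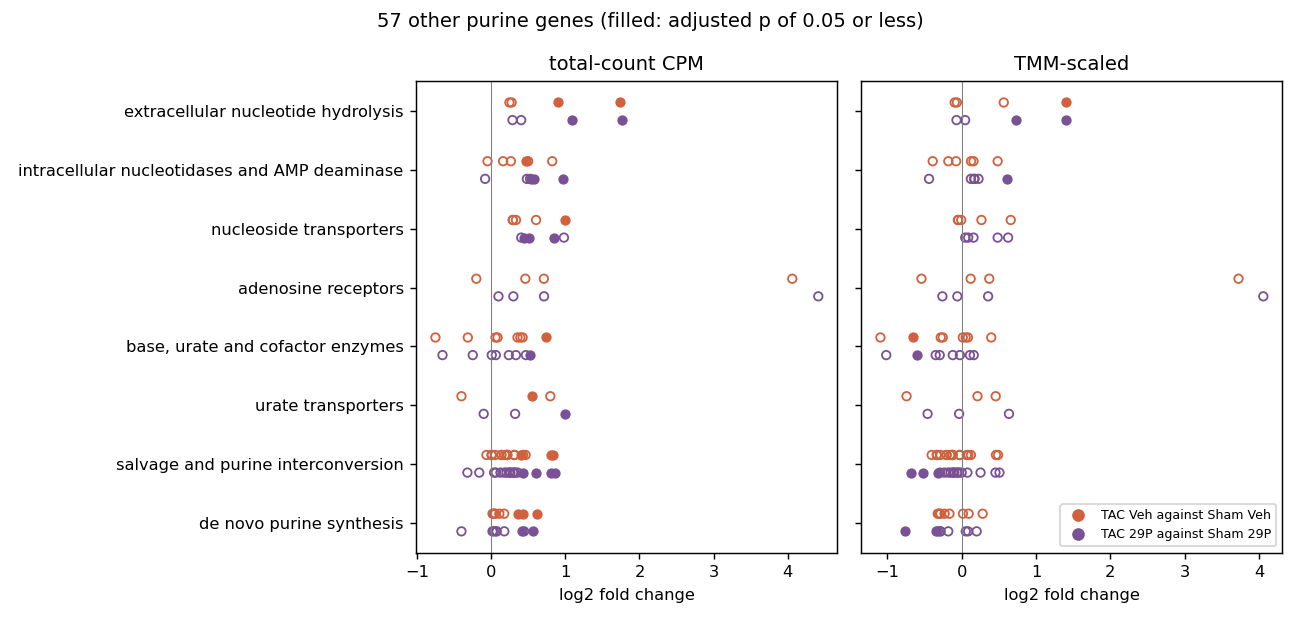
Log2 fold change (horizontal axis) with TAC of 57 other purine genes, 1 point per gene and comparison in rows by function, from total counts (left) and TMM-scaled values (right); filled points have an adjusted p of 0.05 or less. Filled points lie above 0 on the left, while on the right Enpp1 is the furthest called gene above 0 and several synthesis and interconversion genes are called below 0; the far point among the adenosine receptors is Adora3, at the added constant in 2 libraries.

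With 29P within TAC, 0 of the 57 were past even the unadjusted threshold of 0.05 in limma, and within Sham 2 were lower at that threshold, Guk1 (−0.38) and Nt5c (−0.46), with adjusted p = 0.652 and 0.657. Under TMM the count within TAC was 1 at the unadjusted threshold.

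By profile over the 17 libraries, the genes most like Xdh among 14054 genes were Adgrf5, Atp10d and Mylip. Their centred log2 CPM differed from that of Xdh by a mean of 0.15, 0.16 and 0.17 per library, where Xdh itself deviated from its own mean by 0.26. The genes nearest to Ada, whose log2 fold change with TAC in Veh mice was the largest of the members without passing the test, were Gm49909, H2-Q5 and Oas1a, at 0.39, 0.40 and 0.42 against a deviation of 0.85 for Ada. The profile of Pnp was the second nearest to Entpd1, at 0.13 against a deviation of 0.38.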

How the data were processed

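Per the methods and the submitters' processing notes, the authors used Partek and STAR 2.3.7 for polyA RNA-seq reads, with mm10 as the build. How reads were counted, with or without strand, is not given in the sources used here. The authors deposited CPM values with 0.0001 added to each. The exon length per kilobase came from GENCODE vM21. Of low values 82.1 to 84.7% were whole multiples of the smallest step (tolerance 0.05), too few to restore reads, so log2 of the deposited CPM was fitted with limma 3.58.1 (R 4.3.3).

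The model held 1 mean per group over all 17 libraries (13 residual degrees of freedom), with the variance moderated along a trend, on 16218 genes with CPM of at least 0.5 in at least 3 libraries. Calls used a Benjamini-Hochberg adjusted p of 0.05 or less over all genes tested. TMM factors were unweighted, were computed from the CPM values, and trimmed 30% of log ratios and 5% of mean levels from each end. The model was tested on simulated data. Each library carries its own animal number in the labels, and p-values measure the spread between these libraries.

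Named non-member genes had a mean CPM of at least 1: for each TAC comparison, up to 6 per direction with an adjusted p of 0.05 or less by size of change; for each 29P comparison, up to 3 per direction with an unadjusted p of 0.05 or less; others were named after their values were seen. The members and lists were chosen with earlier results of these data known. Alternatives were other scalings, filters on low values, added constants, thresholds, groups in the fit, a run covariate, no variance trend, each library left out, and, added after seeing the data, fits without the atrial libraries and S14. Figures used Python 3.11.15 with matplotlib 3.10.9.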

Additional observations from a re-analysis of the deposited data

Results flagged for a closer look

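Of 18 groups of 5 or 6 libraries examined among the members (Sham Veh and TAC 29P for each gene), 2 held a library far from the others by Dixon's ratio, where chance flags about 1 in 20. Ada was at a log2 CPM of −1.67 in S18 (TAC 29P), about 5 reads, while the nearest of the other 5 TAC 29P libraries was at 0.24. S18 is also the TAC 29P library with atrial transcripts. Ampd2 was at a log2 CPM of 2.66 in S1 (TAC 29P), while the nearest of the others was at 3.25. S1 had the highest mitochondrial share of the TAC libraries, 29.4%, and the lowest sum of fibroblast markers among them, 995.4 CPM. Whether these go with the low Ampd2 value was not tested.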

How the results depend on the processing

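Counts of members past the adjusted threshold moved with the scaling. For TAC Veh against Sham Veh, the 2 members called higher became 0 with TMM, median-of-ratios factors, totals without mitochondrial genes or no variance trend, 1 with no filter on low values, a run term or no atrial libraries, 3 (Entpd1, Ada and Pnp) with neither S14 nor the atrial libraries, and 4 at an unadjusted p. TMM and median-of-ratios factors each called 1 member lower. For TAC 29P against Sham 29P, the 3 called higher became 0 with TMM, median-of-ratios factors or neither S14 nor the atrial libraries, and 1 with totals without mitochondrial genes or a run term. TMM and median-of-ratios factors each called 2 lower, of which Xdh is a description, being chosen from the same TAC 29P libraries. At an unadjusted p, 1 member was lower within TAC, 1 (Ada) within Sham and 1 in the interaction. Those within TAC and in the interaction are Xdh, which was chosen from that difference, so nothing is read from these counts. With 1 library left out the members called higher ranged from 0 to 2 (TAC Veh, 0 without S2, S6 or S16) and from 0 to 3 (TAC 29P, 0 without S14). TMM moved the median of all genes from 0.35 to 0.01 in Veh and from 0.37 to 0.02 in 29P mice. Why the counts moved under TMM or any other setting was not tested.

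Of the other purine genes, the 12 higher in TAC Veh became 1 with TMM or median-of-ratios factors, 4 with totals without mitochondrial genes and 5 without the atrial libraries. Settings that called 1 lower there were an unadjusted p, TMM, median-of-ratios factors, totals without mitochondrial genes, and neither S14 nor the atrial libraries. The 16 higher in TAC 29P became 3 with TMM or median-of-ratios factors, 5 with totals without mitochondrial genes, 2 with a run term and 8 with neither S14 nor the atrial libraries, and TMM and median-of-ratios factors each called 6 lower. Within Sham 2 were lower at an unadjusted p. With 1 library left out the higher counts ranged from 1 (without S2) to 14 and from 5 (without S14) to 21.

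Reversals all concerned log2 fold changes past the adjusted threshold neither before nor after. With a run term the sign changed for Xdh −0.13, Hprt 0.054 (Sham 29P to Sham Veh), and Nt5e −0.13 (TAC 29P to TAC Veh), and Ampd3 −0.12 (TAC 29P to Sham 29P). With TMM the sign changed for Nt5e −0.031, Ampd3 −0.34, Hprt −0.20 (TAC 29P to Sham 29P), and Ampd3 −0.15, Hprt −0.21 (TAC Veh to Sham Veh), and Ampd3 0.0000, Hprt 0.0015 (TAC 29P to TAC Veh). With median-of-ratios factors the sign changed for Nt5e −0.034, Ampd3 −0.34, Hprt −0.20 (TAC 29P to Sham 29P), and Ampd3 −0.13, Hprt −0.20 (TAC Veh to Sham Veh), and Hprt 0.0048 (Sham 29P to Sham Veh). With no atrial libraries the sign changed for Nt5e −0.016 (TAC 29P to TAC Veh), and Pnp 0.045, Hprt 0.030 (Sham 29P to Sham Veh). With neither S14 nor atrial libraries the sign changed for Nt5e −0.016 (TAC 29P to TAC Veh), and Entpd1 0.17, Pnp 0.32 (Sham 29P to Sham Veh), and Ampd3 −0.12 (TAC 29P to Sham 29P). With totals without mitochondrial genes the sign changed for Ampd3 −0.16, Hprt −0.023 (TAC 29P to Sham 29P), and Hprt −0.026 (TAC Veh to Sham Veh). With 1 library left out, values that changed sign in at least 1 fit ranged as follows: Ampd2 −0.70 to 0.16 (Sham 29P to Sham Veh), Ampd3 −0.12 to 0.14 (TAC 29P to Sham 29P), Ampd3 −0.13 to 0.034 (TAC 29P to TAC Veh), Hprt −0.16 to 0.028 (Sham 29P to Sham Veh), Hprt −0.081 to 0.020 (TAC 29P to TAC Veh), Nt5e −0.18 to 0.29 (Sham 29P to Sham Veh), Nt5e −0.15 to 0.15 (TAC 29P to TAC Veh), Pnp −0.44 to 0.084 (Sham 29P to Sham Veh), Xdh −0.20 to 0.29 (Sham 29P to Sham Veh), Xdh −0.44 to 0.044 (TAC 29P to Sham 29P). Of the member values under the other settings 395 kept their direction and side of the threshold, 29 lost a call and 13 gained one. The unadjusted p is counted as a setting, so the gains include values past only that threshold. They also include values of Xdh, from which nothing is read. No paired analysis was possible because each library carries its own number, shared with no other group. Depth limits Ada above all, which has as little as 1 read in a library.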
